A study of Mus musculus with 84 samples.

Results

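The metabotropic glutamate receptors and the Homer scaffolds are described here by 9 genes, 6 receptor genes (Grm2, Grm3, Grm4, Grm5, Grm7 and Grm8) and 3 Homer genes (Homer1, Homer2 and Homer3), chosen by name from the 43629 genes of the count table. All 9 had enough counts to be tested, among 16320 genes that did. Metabotropic glutamate receptors are G protein-coupled receptors that answer glutamate more slowly than the ion channel receptors. Group I receptors, such as Grm5, act through Gq proteins, phospholipase C and calcium release, mostly on the postsynaptic side, while group II (Grm2 and Grm3) and group III (Grm4, Grm6, Grm7 and Grm8) act through Gi/o proteins and lower cyclic AMP, and many of them restrain transmitter release. Homer proteins bind group I receptors and link them to inositol trisphosphate receptors and Shank in the postsynaptic density. Group I receptors and Homer scaffolds have long been studied in relation to ethanol drinking.

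RNA was measured in the central nucleus of the amygdala, a nucleus of mostly GABAergic neurons, from 43 female and 41 male HS-CC mice. HS-CC is the heterogeneous stock of the Collaborative Cross, and its animals differ genetically from one another. The median age at the start of testing was 15 weeks in both sexes. Every mouse could drink 10% ethanol or water for 13 weeks, up to the time of death, so there was no group without ethanol, and 1 library came from each mouse. Preference is the share of all fluid drunk that came from the ethanol tube, and the 43 females averaged 0.272 ± 0.17 (SD) over the weeks and the 41 males 0.21 ± 0.152. The design relates expression to preference on average, in week 1 and in week 13, in all animals and in each sex.

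Libraries held 24118965 to 42036566 counts, with a median of 31573088.5. They differed in markers of neighbouring regions. The summed level of 16 striatal medium spiny neuron genes ran from 1123 to 10000 counts per 1000000 (CPM) in females and from 1005 to 11620 in males. For 15 genes of excitatory basolateral and cortical neurons it ran from 408.5 to 4403 and from 492.9 to 4642, and for 14 choroid plexus genes from 12.6 to 21010 and from 17.4 to 24670. A median of 1 CPM or more was reached by all 16 and all 15 of these neuronal genes, by 10 of the 14 choroid plexus genes, and by all 16 genes listed for central amygdala neurons, with Prkcd, Sst and Crh among them. In such dissected tissue, fewer cells of a type and less RNA per cell cannot be told apart.

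The start of Homer1 is shown with that of Homer2, because these scaffold genes varied together over the libraries. Both also varied with immediate early genes (r = 0.702 for Homer1 and 0.6 for Homer2). The sequences are the 250 bases before the first listed RefSeq start on build GRCm38.p6, 5′ to 3′ on the gene's strand, with the letters TGACG, the core of the cyclic AMP response element, in capitals.
Homer1, chr13:93303507-93303756 (+): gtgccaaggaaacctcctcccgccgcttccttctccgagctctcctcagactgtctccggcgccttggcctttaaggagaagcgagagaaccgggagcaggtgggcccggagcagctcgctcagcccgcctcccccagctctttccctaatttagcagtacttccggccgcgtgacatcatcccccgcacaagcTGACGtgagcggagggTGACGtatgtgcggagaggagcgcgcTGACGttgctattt
Homer2, chr7:81706926-81707175 (-): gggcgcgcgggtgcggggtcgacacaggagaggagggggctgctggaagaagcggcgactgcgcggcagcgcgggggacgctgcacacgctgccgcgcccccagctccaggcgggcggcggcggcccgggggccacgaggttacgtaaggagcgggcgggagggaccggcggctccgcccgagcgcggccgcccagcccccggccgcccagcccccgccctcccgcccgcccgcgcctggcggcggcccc
The Homer1 window held TGACG 3 times, at 56 to 52, 40 to 36 and 14 to 10 bases before the start, all on the strand shown. The Homer2 window held it 0 times, and 83.2% of its bases were G or C against 62.4% in the Homer1 window. The second listed windows of Homer1 and Homer2, not shown, and the Homer3 window also held it 0 times. Counting both strands, 17.77% of 32851 RefSeq promoter windows of the same length held TGACG at least once and 0.69% held it at least 3 times. The full element TGACGTCA was in 1.55% of all windows and in neither of these. RefSeq windows were matched for 7 of the 9 genes, all except Grm4 and Grm5. A match of letters is a description and does not show that a factor binds there.

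Levels of the 9 genes were compared with each other as reads per kilobase of exon per 1000000 reads (RPKM), and every other level is in CPM. The length takes in all listed exons of a gene, whichever forms are expressed, such as 11149 bases for Homer2 and 3320 for Grm2. Grm5, a group I receptor that couples to phospholipase C, stood highest with a median of 25.8 RPKM. Next came Homer1 (12.3), Grm2 (11.9), Grm3 (11.0) and Grm7 (9.75), and then Grm4 (5.10), Homer2 (3.98), Grm8 (2.66) and Homer3 (2.49). Only some neighbours in this order were distinct. Grm5 exceeded Homer1 in 83 of 84 libraries and Grm7 exceeded Grm4 in 77, and Homer2 exceeded Grm8 in 68. Homer1 exceeded Grm2 in 45 libraries, Grm2 exceeded Grm3 in 51, Grm3 exceeded Grm7 in 53, Grm4 exceeded Homer2 in 52 and Grm8 exceeded Homer3 in 47, so these neighbours overlapped. Grm6, a receptor known from retinal bipolar cells, had 0 to 3 counts per library and was not tested.

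**Figure D1:**
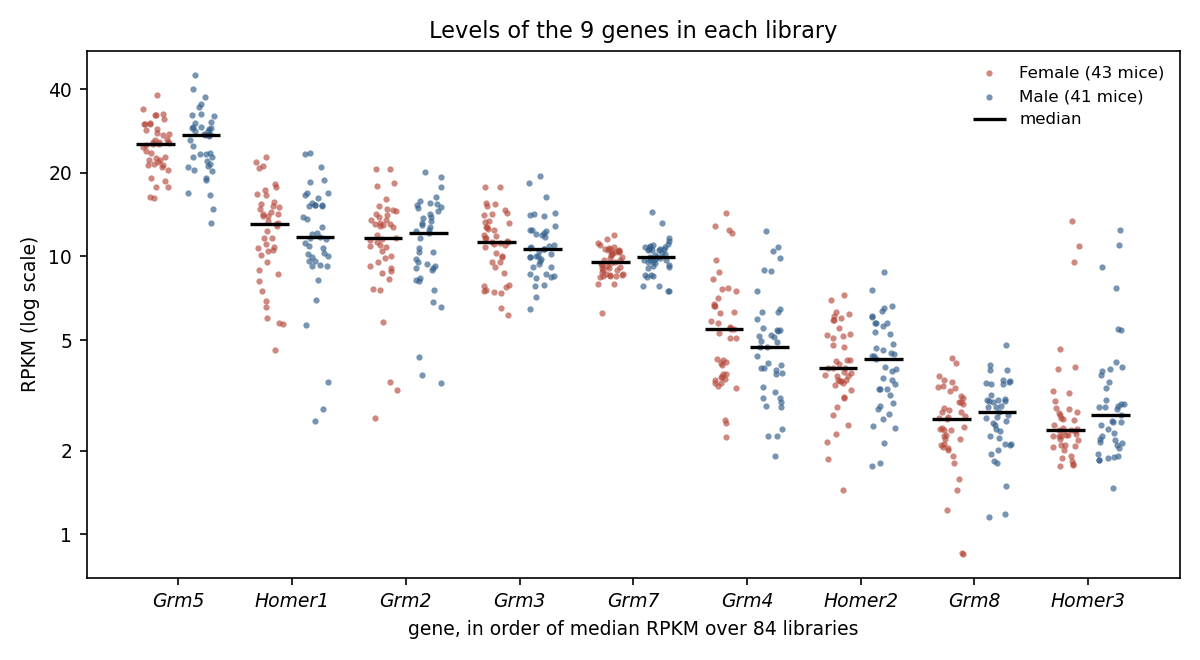
Level of each gene in RPKM on a log scale, with genes in order of their median over 84 libraries, 1 point per mouse and a black line at the median of each sex. Grm5 lies above the rest at a median of 25.8 RPKM, Grm7 forms the tightest column, and Homer3 has a tail of high libraries in both sexes.

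Positions are those of the deposited table on build GRCm38. Grm5 (chromosome 7, 87602544 to 88134907) ran from 128.9 to 304.6 CPM in females with a median of 202.0, and from 105.1 to 359.3 in males with a median of 217.8. The male range enclosed the female one. It had the highest level per length of the 9 genes, and it is the receptor among them that Homer proteins are known to bind.

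The group II receptors had like medians but unlike spreads. Grm2 (chromosome 9, 106644537 to 106656109), mostly a presynaptic autoreceptor of glutamatergic fibres, ran from 8.74 to 68.7 CPM in females (median 38.6) and from 11.6 to 66.8 in males (median 40.3). Grm3 (chromosome 5, 9485236 to 9725352), which is found in neurons and in glia, ran from 21.8 to 63.0 CPM in females (median 39.9) and from 22.8 to 68.8 in males (median 37.5). For both genes the sexes overlapped over nearly their whole range, and the coefficient of variation over all libraries was 34% for Grm2 and 25.4% for Grm3.

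Among the group III receptors, Grm7 was the most even and Grm4 the least. Grm7 (chromosome 6, 110645581 to 111567230), a receptor of presynaptic active zones, ran from 36.8 to 70.4 CPM in females (median 56.0) and from 44.2 to 85.2 in males (median 58.7). Its coefficient of variation was 12.9%, and 17.3% of tested genes had a smaller biological coefficient of variation in edgeR. Grm4 (chromosome 17, 27422387 to 27513341), which is known from striatal projection neurons of the indirect pathway, ran from 12.0 to 76.0 CPM in females (median 29.1) and from 10.2 to 65.6 in males (median 25.2), a coefficient of variation of 48.7%. Grm8 (chromosome 6, 27275121 to 28135178) was the lowest receptor, at 6.68 to 33.97 CPM in females (median 20.5) and 9.08 to 37.8 in males (median 21.7). For each of these receptors the female and male ranges overlapped. The female library with the highest Grm4 level, replicate 26, had the lowest Grm8 and the lowest Homer2 level of all libraries.

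The Homer genes varied more than most receptors. Homer1 (chromosome 13, 93303757 to 93404129), whose short activity-induced form competes with the long scaffold forms, ran from 48.3 to 239.1 CPM in females (median 136.9) and from 26.8 to 248.5 in males (median 123.0). The deposited count pools all forms of Homer1, so the short form was not separated. Homer2 (chromosome 7, 81600481 to 81706925) ran from 16.2 to 80.97 CPM in females (median 44.2) and from 19.6 to 98.4 in males (median 47.8). Homer3 (chromosome 8, 70282827 to 70294361), the member of the family best known from Purkinje cells, was low and skewed, at 6.05 to 46.1 CPM in females (median 8.14) and 5.07 to 43.0 in males (median 9.29). Its coefficient of variation was 72.7%, and 88% of tested genes had a smaller biological coefficient of variation. The highest Homer3 levels were in female replicates 12 (46.1 CPM), 28 (37.4) and 17 (32.9) and in male replicates 17 (43.0), 18 (37.8) and 33 (31.6), and no other library passed 26.6. Of the 3440 exon bases of Homer3, 874 are shared with Ddx49 on the opposite strand, and since the strand setting of the counting is not given, reads of these could not be told apart. The levels of Homer3 and Ddx49 had r = -0.13 over the libraries, as a description.

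The sexes did not differ detectably in any of the 9 genes. edgeR's quasi-likelihood test called 0 of the 9 at an adjusted p under 0.05, as against 0.0919% of all genes tested, and 0 of 9 had an unadjusted p under 0.05, against 3.81%. The log2 difference, male minus female, was largest in size for Grm4 at -0.19 ± 0.14 (SE, adjusted p = 0.986) and for Homer3 at 0.17 ± 0.17 (adjusted p = 0.986). For Grm7, the most even gene, it was 0.06 ± 0.04, with a 95% interval from -0.02 to 0.14.

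The 9 genes were next compared with each other over the 84 libraries on the log2 CPM scale. The scaffolds Homer1 and Homer2 and the receptor Grm5 varied together, and so did Grm3 and Grm4. Of 36 pairs, 5 had a Pearson r of at least 0.5, against 3.55% of all pairs of tested genes, and 0 had an r of -0.5 or lower, against 2.82%. By a permutation test (100000 permutations, Benjamini-Hochberg over the 36 pairs), 18 pairs passed an adjusted p under 0.05, of which 13 were positive. The weakest of these had an r of 0.256 in size, a size that 32.1% of all pairs of tested genes reached. Like the tests of sex, marker scores and preference reported here, these tests treat the animals as independent, although up to 3 shared a family.

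Grm5 and Homer2 had r = 0.629 and Spearman's rho = 0.6, and r was 0.57 without the 2 libraries farthest from the median. Grm5 and Homer1 had r = 0.595 (rho 0.519, 0.548 without the 2 libraries), and Homer1 and Homer2 had r = 0.602 (rho 0.552, 0.556). Each of these values had a permutation p of 1e-05, the smallest that the test can give, and an adjusted p of 6e-05. The 3 genes were thus positively related to each other, but such relations were not confined to a group I receptor and its scaffolds. Grm7, a group III receptor, had r = 0.449 with Homer2 and 0.312 with Homer1. Within the 4 runs of sample-sheet numbers r was 0.593 to 0.772 for Grm5 with Homer2 and 0.464 to 0.775 for Homer1 with Homer2, while for Grm5 with Homer1 it was 0.106 in the first run and 0.544 to 0.745 in the others. Grm5 and Grm7 had r = 0.543 (rho 0.564, 0.511 without the 2 libraries, adjusted p = 6e-05) and 0.416 to 0.717 within runs. Grm3 and Grm4 had r = 0.615 (rho 0.615, 0.62 without the 2 libraries, adjusted p = 6e-05) and 0.531 to 0.867 within runs. Homer3 had no positive r above 0.0483 with another member, and its lowest was with Grm8, at r = -0.388 (rho -0.449, adjusted p = 0.0013 and 0.00018). The lowest r of all pairs was that of Grm4 and Homer2, at -0.492 (rho -0.457, -0.438 without the 2 libraries, adjusted p = 0.000103), and it was -0.668 to -0.211 within runs. Grm2 and Grm8 had r = 0.469 (rho 0.331, 0.329 without the 2 libraries, adjusted p = 0.000135 and 0.00726). Their r was 0.0936 to 0.838 within runs, 0.645 in females and 0.252 in males.

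**Figure D2:**
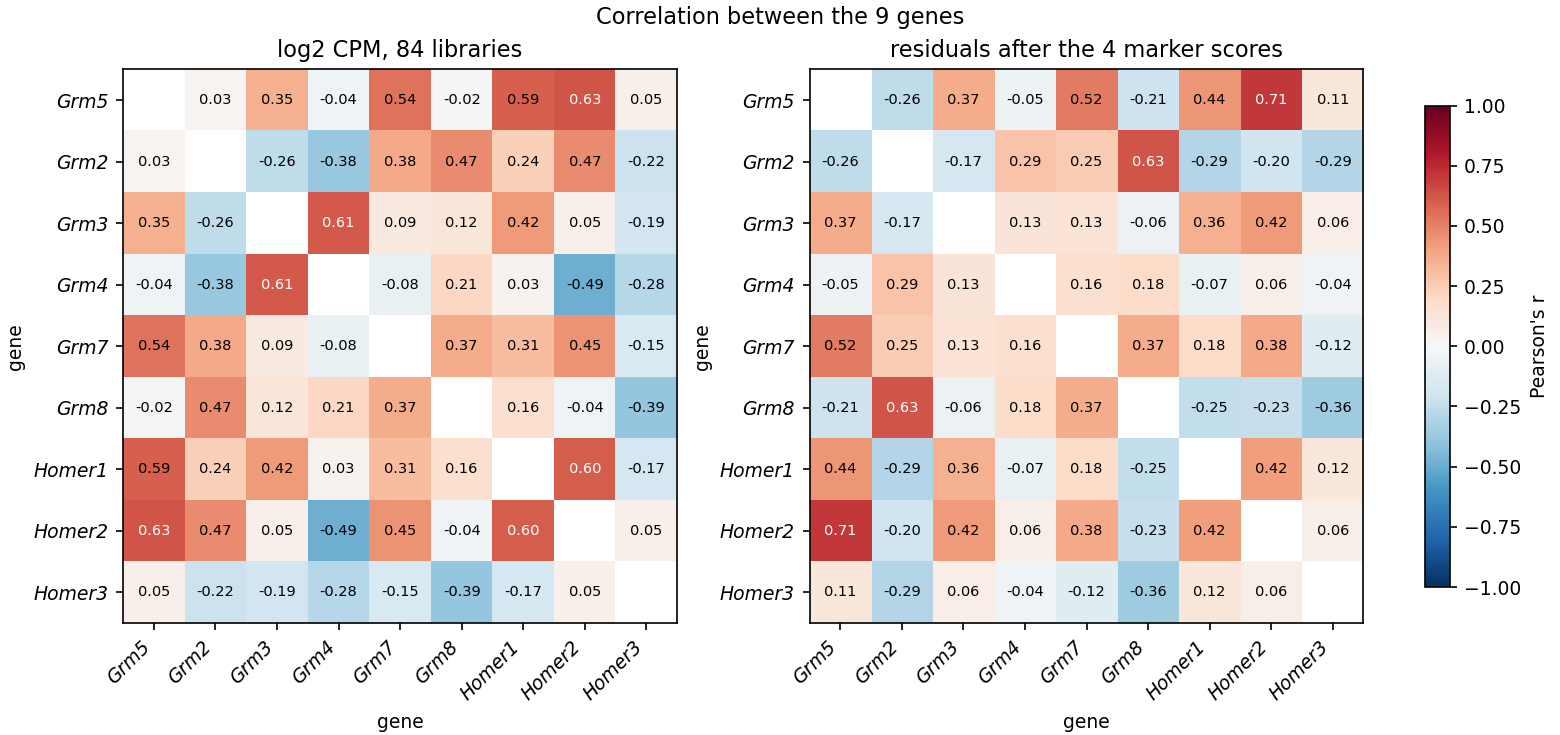
Pearson's r for each pair of the 9 genes over 84 libraries, on log2 CPM (left) and on residuals after the scores of astrocyte, striatal medium spiny neuron, excitatory neuron and choroid plexus markers (right), with red for positive and blue for negative values. Grm5 with Homer2 is red in both panels (0.629 and 0.706), whereas Grm3 with Grm4 falls from 0.615 to 0.13 and Grm4 with Homer2 goes from -0.492 to 0.06.

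Several of these pairs moved with markers of cells at or around the nucleus. A library's score for a marker list is the mean z-score of its genes, and 144 relations of the 9 genes with 16 lists were computed. Grm4 had r = 0.897 with the striatal medium spiny neuron score (rho 0.885, 0.885 without the 2 farthest libraries) and 0.872 to 0.937 within runs. Grm3 had r = 0.651 with the same score (rho 0.658, 0.643) and 0.554 to 0.821 within runs, and these were 2 of the 9 genes at an r of 0.5 or more in size, against 7.11% of all tested genes. Homer2 had r = 0.8 with the excitatory neuron score (rho 0.769, 0.78), Homer1 0.726 (rho 0.636, 0.688) and Grm2 0.633 (rho 0.481, 0.584). These were 3 of the 9 genes, against 16.9% of all tested genes. The within-run values were 0.662 to 0.879 for Homer2, 0.614 to 0.791 for Homer1 and 0.278 to 0.939 for Grm2. With the astrocyte score only Homer1 reached 0.5 in size, at r = -0.517 (rho -0.412, -0.552), against 3.92% of tested genes, and Grm3, which astrocytes are known to express, had r = 0.063 (rho -0.00336, adjusted p = 0.652 and 0.99). Each r of 0.5 or more in size in these comparisons had an adjusted permutation p of 6.86e-05 over the 144 relations.

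Homer1 and Homer2 also moved with immediate early genes, which neurons switch on after activity. Against a score of 16 such genes, including Fos, Arc and Npas4, Homer1 had r = 0.702 (rho 0.67, 0.644 without the 2 farthest libraries, adjusted p = 6.86e-05), with 0.647 to 0.779 within runs. Homer2 had r = 0.6 (rho 0.562, 0.542, adjusted p = 6.86e-05), with 0.356 to 0.825 within runs. An r of 0.5 or more in size with this score was found in 8.67% of all tested genes. Homer1 was low where 3 other scores were high, those of thalamic, hypothalamic and medial amygdala neurons (r = -0.627, rho -0.603, -0.601), oligodendrocyte precursors (-0.603, rho -0.478, -0.537) and the granule neuron list (-0.539, rho -0.488, -0.543). At 0.5 or more in size were 7.07%, 9.86% and 3% of tested genes. The granule neuron list, cerebellar and hippocampal, held 8 genes. Of these 6 were tested, without Gabra6 and Pcp2, and 4 reached a median of 1 CPM. Homer2 was low where myelin genes were high (r = -0.721, rho -0.712, -0.68) and where central amygdala neuron markers were high (r = -0.677, rho -0.671, -0.643), while Grm4 had r = 0.53 with the former (rho 0.558, 0.54) and 0.682 with the latter (rho 0.681, 0.673). These scores had an r of 0.5 or more in size with 13.6% and 9.13% of tested genes. With the endothelial and mural score Grm4 had r = 0.52 (rho 0.452, 0.513) and Grm2 -0.513 (rho -0.36, -0.47), against 6.21%. The list of central amygdala neurons shares Drd2 and Penk with the medium spiny list. Homer3 had its highest r with the choroid plexus score, 0.523 (rho 0.501, 0.478, adjusted p = 6.86e-05), and 0.433 to 0.67 within runs, against 6.99% of tested genes. Grm5, Grm7 and Grm8 reached a Pearson r of 0.5 in size with none of the 16 scores. Grm8 came nearest by rank with the central amygdala neuron score, at a rho of 0.529 (adjusted p = 7.58e-05) beside r = 0.432 (adjusted p = 0.00036). That r was 0.197 in females and 0.719 in males, and -0.00616 to 0.653 within runs.

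**Figure D3:**
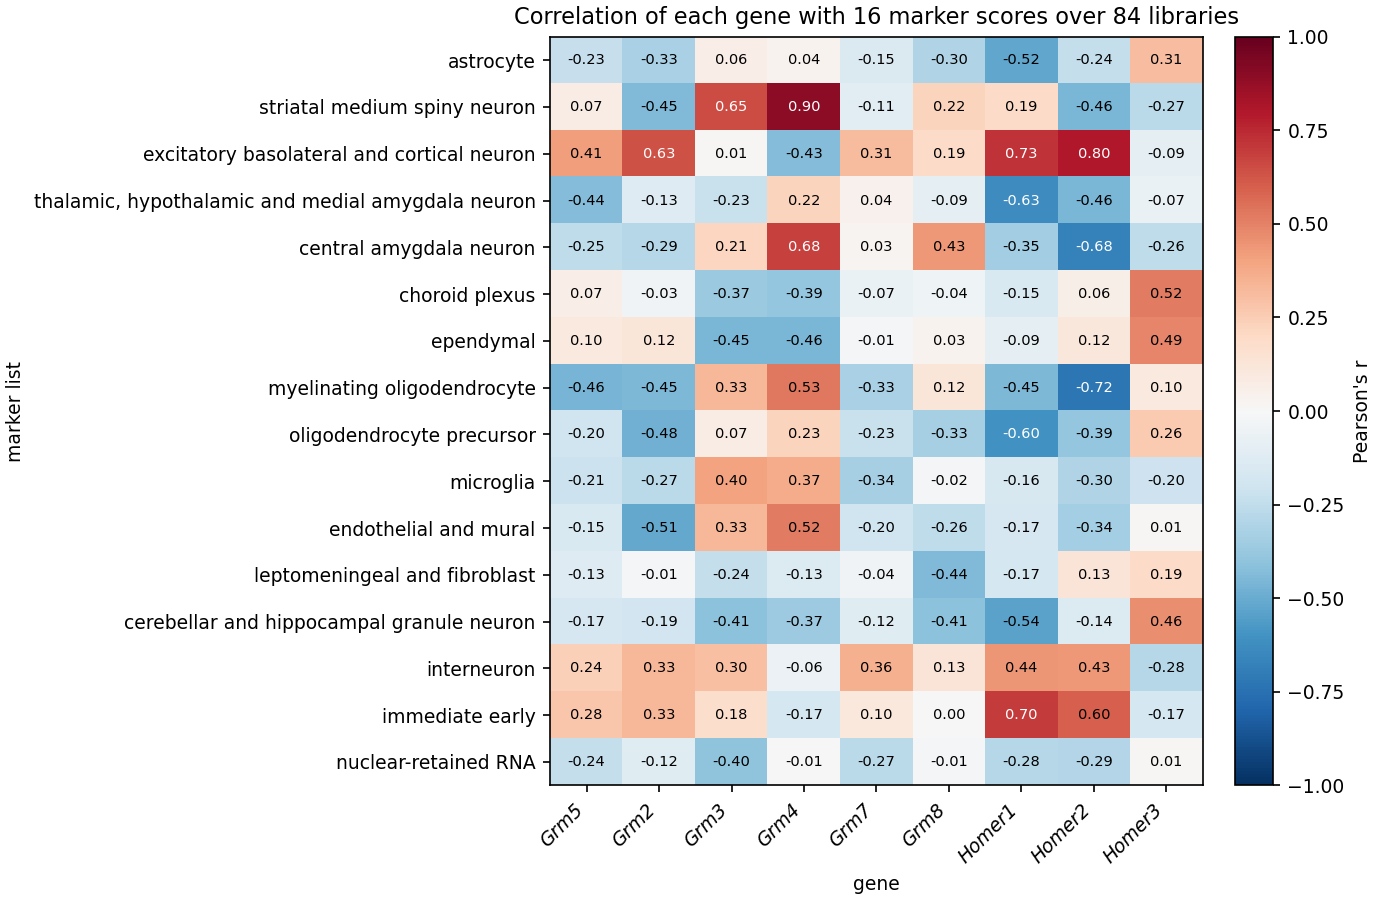
Pearson's r of each gene (columns) with the score of each of 16 marker lists (rows) over 84 libraries, red for positive and blue for negative. Grm4 is darkest in the medium spiny row (0.897), Homer2 and Homer1 in the excitatory row (0.8 and 0.726), and the columns of Grm5, Grm7 and Grm8 stay below 0.5 in size.

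After the 4 scores of astrocyte, medium spiny, excitatory and choroid plexus markers were taken out of each gene, 3 pairs had an r of at least 0.5. Grm5 with Homer2 then had r = 0.706, Grm2 with Grm8 0.631 and Grm5 with Grm7 0.519. The pair of Grm3 and Grm4 had 0.13, and Homer1 had 0.416 with Homer2 and 0.44 with Grm5. What part these cells have in the relations was not tested beyond this.

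The genes closest to each member, among 13368 genes whose log2 CPM averaged 1 or more, were ranked by the r of residuals after sex and run over the 84 libraries. Grm4 was closest to Drd2, the dopamine D2 receptor gene (0.91), then to Adcy5, Syndig1l, Rasd2 and Scn4b (0.893 to 0.899). Drd2, Adcy5 and Rasd2 are also on the medium spiny list. Homer2 was closest to Rnf165 (0.903), Nrcam, Dlgap1, Prkce and Camk2a (0.872 to 0.901), of which Dlgap1 encodes a scaffold of the postsynaptic density and Camk2a the calcium/calmodulin kinase of excitatory synapses. Homer1 was closest to Fam212b (0.893), Ankrd33b, Cecr6, Dclk1 and Rasgrp1 (0.856 to 0.886). Grm5 was closest to Dgkb (0.886), which encodes a kinase of the lipid messenger diacylglycerol, and then to Anks1b, Lrrc7, Celf1 and Braf (0.836 to 0.846). Homer3 was closest to Il16 (0.866), Rnf182, Olfml2b, Nrp1 and Cabp7 (0.812 to 0.842). The other receptors had weaker leads. For Grm3 it was Abcd2 (0.798), for Grm2 Doc2a (0.794), for Grm7 G3bp2 (0.794) and for Grm8 Doc2a (0.618), so Grm2 and Grm8 shared their closest gene.

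Mean preference over the weeks was then set against expression in all 84 animals with sex in the model. Each slope gives the log2 change for a preference higher by 0.5, with its SE after ±, and intervals are 1.96 SE to each side. edgeR called 0 of the 9 genes at an adjusted p under 0.05, as it did 0% of all 16320 genes, and DESeq2 and limma-voom also called 0 of the 9. At an unadjusted p under 0.05 it had 1 of 9, against 3.94% of all genes. That gene was Homer3, with a slope of 0.64 ± 0.23 (unadjusted p = 0.0059, adjusted p = 0.9995). Grm4 (-0.33 ± 0.23) and Grm3 (-0.21 ± 0.13) had the next largest slopes in size, and neither passed. The other 6 genes had slopes from -0.07 (Grm8) to 0.02 (Homer2), with the narrowest interval for Grm7, from -0.17 to 0.08, and the widest for Homer1, from -0.43 to 0.42.

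In the 43 females alone 0 of 9 genes were called, again as 0% of all genes, and 3 of 9 had an unadjusted p under 0.05, against 6.95%. Homer3 had a slope of 0.88 ± 0.26 (unadjusted p = 0.0013, adjusted p = 0.477 in edgeR). Grm3 had -0.35 ± 0.16 (adjusted p = 0.642) and Grm4 -0.61 ± 0.29 (adjusted p = 0.667). The female with the highest mean preference, replicate 12 at 0.759, also had the highest Homer3 level, 46.1 CPM. Without this library, a choice made after its values were seen, the slope of Homer3 in females was 0.36 ± 0.30 (adjusted p = 0.912) and in all animals 0.29 ± 0.25. This 1 library thus moved the value by more than 1.5 times. Grm3 without that library had -0.49 ± 0.19 and Grm4 -0.59 ± 0.32. The counts at an unadjusted p under 0.05 were then 1 of 9 in females, against 7.5% of all genes, and 0 of 9 in all animals, against 4.11%.

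In the 41 males 0 of 9 genes were called, against 0% of all genes, and 0 of 9 had an unadjusted p under 0.05, against 1.65%. Homer3 had a slope of 0.22 ± 0.39, Grm3 0.01 ± 0.19 and Grm4 0.03 ± 0.34. The slopes of the sexes were not shown to differ. For the sex by mean preference term 0 of 9 genes were called, against 0%, and 0 of 9 had an unadjusted p under 0.05, against 3.24%. The difference, male minus female slope, was -0.67 ± 0.48 for Homer3, 0.36 ± 0.25 for Grm3 and 0.63 ± 0.45 for Grm4.

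**Figure D4:**
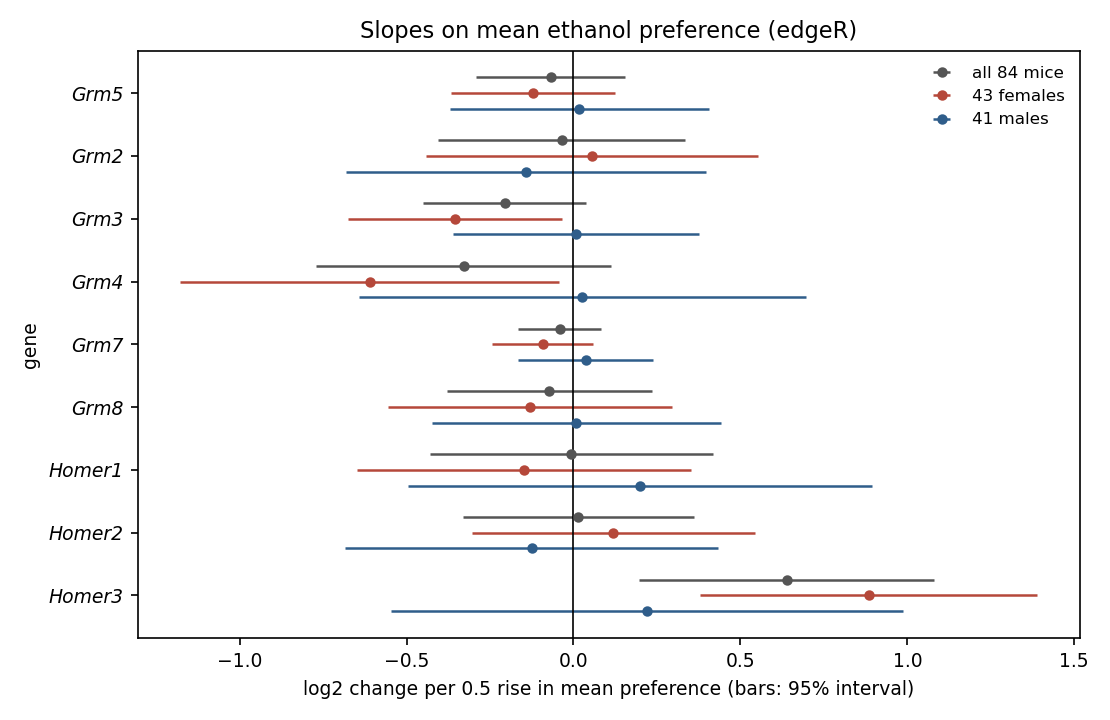
Slope of each gene on mean preference from edgeR, as log2 change per 0.5 rise, with bars of 1.96 SE to each side, in all 84 mice (grey), 43 females (red) and 41 males (blue). Homer3 in females lies farthest from 0 at 0.88, Grm3 and Grm4 in females lie below 0, and all male bars cross 0.

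**Figure D5:**
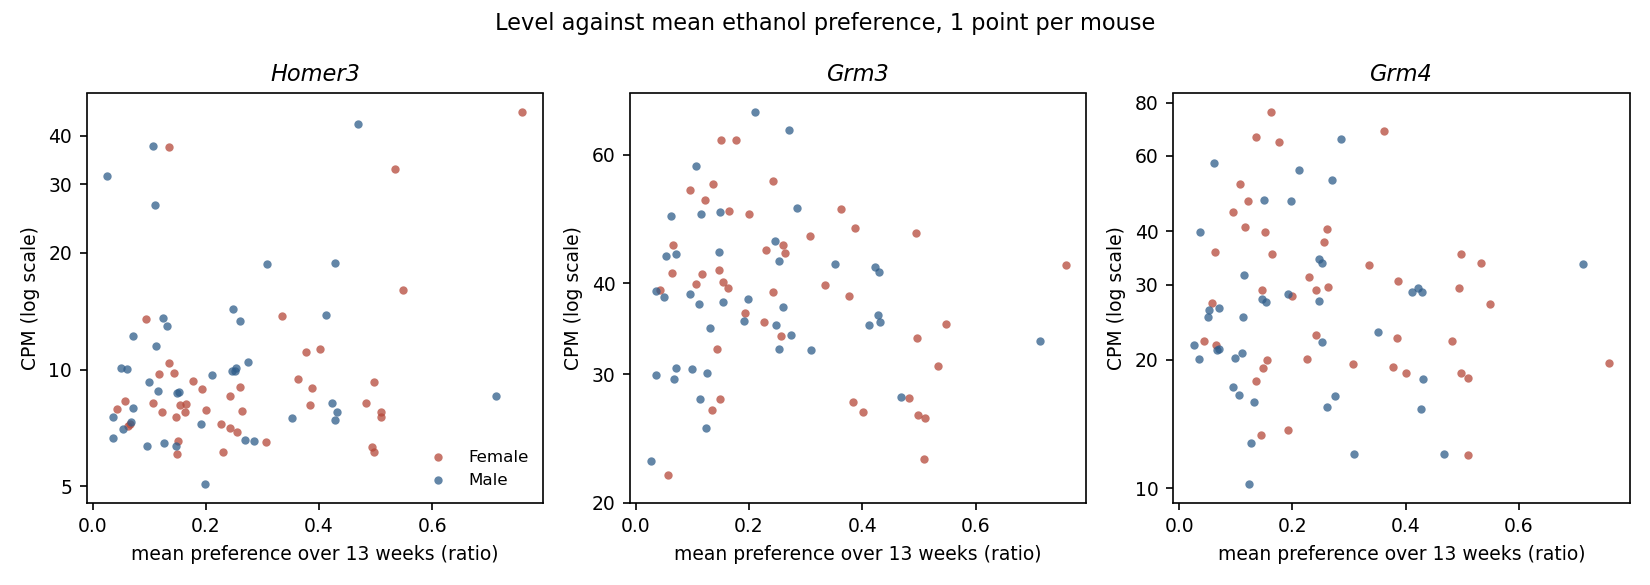
CPM on a log scale against mean preference over 13 weeks, 1 point per mouse, for Homer3, Grm3 and Grm4, females red and males blue. In the Homer3 panel female replicate 12 stands alone at a preference of 0.759 and 46.1 CPM, and the 3 highest females include replicate 28 at a preference of 0.135.

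Week 1 preference, the measure closest to the first contact with ethanol, gave no call among the 9 genes. In all animals 0 of 9 were called against 0.0306% of all genes, and 0 of 9 had an unadjusted p under 0.05, against 3.25%. In females the counts were 0 and 0 of 9, against 0% and 2.26%, and in males 0 and 1 of 9, against 0.0368% and 5.17%. The 1 gene in males was Grm7, with a slope of 0.17 ± 0.08 (adjusted p = 0.953), beside -0.12 ± 0.08 in females. Without male replicate 39 it had 0.11 ± 0.09 (adjusted p = 0.971), and the count at an unadjusted p under 0.05 was 0 of 9, against 3.43%. That 1 library moved the slope by more than 1.5 times, and the calls over all genes went from 6 to 0 without it. For the sex by week 1 preference term 0 of 9 were called, against 0%, and Grm7 was the 1 of 9 at an unadjusted p under 0.05, against 4.31%. Its male minus female slope was 0.29 ± 0.12 (adjusted p = 0.98).

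Week 13 preference, the measure closest to the time of dissection, gave 0 of 9 called in all animals, against 0%, and 0 of 9 at an unadjusted p under 0.05, against 6%. In females 0 of 9 were called, against 0.0368%, and 3 of 9 had an unadjusted p under 0.05, against 8.67%. They were again Grm4 (-0.55 ± 0.22, adjusted p = 0.328), Homer3 (0.53 ± 0.23, adjusted p = 0.434) and Grm3 (-0.30 ± 0.13, adjusted p = 0.46). Without female replicate 12 the slope of Homer3 was 0.16 ± 0.22 (adjusted p = 0.997), and 2 of 9 genes, Grm4 and Grm3, had an unadjusted p under 0.05, against 7.92%. In males the counts were 0 and 0 of 9, against 0% and 3.74%, with Grm4 at 0.30 ± 0.27 and Grm3 at 0.13 ± 0.14. For the sex by week 13 preference term 0 of 9 were called, against 0.00613%, and 2 of 9 had an unadjusted p under 0.05, against 6.23%. These were Grm4 (0.84 ± 0.35, adjusted p = 0.692) and Grm3 (0.42 ± 0.20, adjusted p = 0.772), both with the lower slope in females. Homer1 had a slope of 0.46 ± 0.25 in males (adjusted p = 0.984) and -0.11 ± 0.20 in females (adjusted p = 0.982).

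The 4 scores of astrocyte, medium spiny, excitatory and choroid plexus markers were set against mean and week 13 preference by sex, in 16 relations. In females the medium spiny score had r = -0.313 with week 13 preference (rho -0.274, permutation p = 0.0418 and 0.0762, adjusted p = 0.334 and 0.61), and -0.248 without the 2 farthest animals. The choroid plexus score had r = 0.388 (rho 0.35, permutation p = 0.0105 and 0.0225, adjusted p = 0.168 and 0.36), and 0.319 without them. Neither passed after adjustment, and within the runs the values were -0.722 to -0.00301 and -0.234 to 0.747. Scores outside these 4 were set against preference without a test. The ependymal score, with r = 0.486 for Homer3, had r = 0.415 with week 13 preference in females and 0.033 in males. The central amygdala neuron score, with r = 0.682 for Grm4, had r = -0.303 with mean preference in females and -0.0276 in males. With the 4 scores as covariates, Grm4 in females had a week 13 slope of 0.05 ± 0.10 and a mean preference slope of -0.04 ± 0.12, and its sex by week 13 term was -0.12 ± 0.15. Grm3 in females then had a week 13 slope of -0.15 ± 0.10 and a mean preference slope of -0.19 ± 0.12. Homer3 in females then had a week 13 slope of 0.23 ± 0.23 and a mean preference slope of 0.69 ± 0.24 (edgeR adjusted p = 0.999 and 0.814). With the 5 libraries of highest choroid plexus score left out, these slopes of Homer3 were 0.32 ± 0.23 and 0.68 ± 0.26 (edgeR adjusted p = 0.9996 and 0.988). The week 13 slope of Homer3 was thus smaller by more than 1.5 times under both choices, and the mean preference slope was not.

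Fits to each single week in each sex show how far these slopes depend on the week. In females the slope of Homer3 was positive in 13 of 13 weeks, from 0.53 in week 13 to 0.90 in week 5, and had an unadjusted p under 0.05 in 12 of them. Without female replicate 12 it was still positive in 13 of 13 weeks, but from 0.06 in week 12 to 0.42 in week 5, and had an unadjusted p under 0.05 in 0 of them. The slopes of Grm3 and Grm4 were negative in 13 of 13 weeks, with the lowest in week 12 at -0.40 and -0.66, and had an unadjusted p under 0.05 in 6 and 5 weeks, or 11 and 3 weeks without that library. Over all tested genes and the 13 weeks together, the share at an unadjusted p under 0.05 was 6.52% in females (2.26% to 9.24% by week), and 7.24% without replicate 12. Over these weeks the smallest edgeR adjusted p of any of the 3 genes was 0.266 with all females (Homer3). Without replicate 12 it was 0.256 (Grm3). The weeks come from the same animals and libraries, so they do not repeat each other independently. In most animals the labelled preference of week 11 lay near the average of weeks 5 to 10. It was still counted among the 13 weeks and in mean preference. Whether it is a separate measure was not tested. In males Homer3 was positive in 10 of 13 weeks, and 0 of the 13 weeks had an unadjusted p under 0.05 for Homer3, Grm3 or Grm4, against 2.34% over all genes and weeks.

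The rest of the pathway was described by 5 lists. On mean preference in all animals edgeR called 0 genes of any list, in either direction, and the background was again 0%. Of 18 genes of the Gq pathway of group I receptors, 9 had a positive slope and the median was 0.00454, against -0.00151 over all genes. The 1 gene with an unadjusted p under 0.05 was Prkca, which encodes protein kinase C alpha (0.34 ± 0.16, adjusted p = 0.9995). Of 25 genes of the Gi/o pathway of groups II and III, 5 had a positive slope and the median was -0.0497. The smallest p in this list belonged to Prkar2b, a regulatory subunit of protein kinase A, at -0.16 ± 0.09. In females 6 of these 25 genes had a positive slope (median -0.0631) and in males 17 (median 0.0382), while the sex by mean preference term had 0 of 25 at an unadjusted p under 0.05. On week 13 preference in females 7 of the 25 had a negative slope at an unadjusted p under 0.05 and 0 a positive one, against 8.67% of all genes in either direction. In the sex by week 13 term 7 of 25 had a positive value at that level and 0 a negative one, against 6.23% in either direction, and 0 passed after adjustment. This list shares Adcy5 and Rgs9 with the medium spiny list, whose score had r = -0.313 with week 13 preference in females. What part such cells have in these counts was not tested. Of 25 Homer-binding and postsynaptic density genes 13 were positive, with a median of 0.00178, and Cacna1d, a calcium channel gene, led at 0.12 ± 0.09. Of 28 partners and regulators of the receptors 13 were positive, with a median of -0.00302, led by Elfn1, which encodes a synaptic partner of group III receptors, at -0.16 ± 0.13. Of 14 genes of glutamate synthesis, release and uptake 5 were positive, with a median of -0.0485. Glul, the glutamine synthetase gene, had -0.17 ± 0.09 there.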

How the data were processed

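Per the labels, the authors deposited raw counts of reads per gene, 1 column for each of 84 libraries. FastQC, STAR, Subread featureCounts 1.6.0 and DESeq2 on build GRCm38 (mm10) are named in the submitters' processing notes. The strand setting and annotation release of the counting are not given in the sources used. Per the labels' protocols the libraries are stranded and poly(A)-selected, and at most 3 animals came from 1 family, which is not given per animal.

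Genes were kept by filterByExpr (minimum count 10, minimum total 15), scaled by TMM factors and tested with the robust quasi-likelihood F-test of edgeR 4.0.16 in R 4.3.3, with Benjamini-Hochberg adjustment over all 16320 genes. The SE is the size of the slope over the square root of F. CPM and RPKM use TMM-scaled totals and exon lengths from the deposited table, and log2 CPM a prior count of 2. DESeq2 1.42.0 and limma 3.58.1 (voom) were alternatives. Replicate numbers follow the listing order and only name samples. Runs are the 4 ascending runs of numbers in the sample titles, taken as possible batches. Named beside the members are the 5 genes closest to each and, of each pathway list, genes among the 3 with the smallest p on mean preference in all animals. Members and lists were chosen with earlier results of these data known. Another planned pathway list is not reported here. The fits were tested on simulated data with known slopes, 100 genes each at 0.75 and 1.5 in size. At 0.75, 78% of the changed genes were recovered in all animals and 62% in females. For the sex by mean preference term it was 47%. At 1.5 these shares were 93%, 89% and 75%. Recovery of smaller slopes was thus incomplete.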

Additional observations from a re-analysis of the deposited data

How the results depend on the processing

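No member was called in any of the 13 comparisons, or under any alternative run for it. These were relative log expression factors, no filter, limma-voom, DESeq2, run or the 4 marker scores as covariates, without 5 choroid-rich libraries, and, except for the sex difference, intake or rank in place of preference and without the 2 extreme animals. Male replicate 39 was left out for week 1 only, and female replicate 12 for mean preference and the single weeks in females. Slopes with intake are per 10 g/kg and those with rank per 0.5 of the range of ranks, so their sizes are not comparable with the others. Over the 9 genes and 13 comparisons, 99 of 1206 alternative slopes had another sign than in the main analysis, 31 of them with the 4 scores. Among the slopes on mean preference in all animals, and those elsewhere at an unadjusted p under 0.05, 14 changed sign. On mean preference in all animals these were Grm2 with limma-voom (0.0512), with run (0.0551), without the 5 libraries (0.0251) and without the 2 animals (0.00478), and Grm8 with limma-voom (0.00861). Homer1 changed sign with run (0.00137), intake (0.155), rank (0.107), without the 2 animals (0.185) and without female replicate 12 (0.0476), an alternative chosen after seeing the data, and Homer2 with the 4 scores (-0.109) and without that female (-0.0463). With the 4 scores Grm4 changed sign in females in week 13 (0.0543) and in the sex by week 13 term (-0.12). The causes were not tested. Homer3 in females ran from 0.26, without the 2 animals, to 1.04, with run, and its smallest adjusted p was 0.054, with intake. Pairs at an r of at least 0.5 numbered 3 after the 4 scores, 8 in the first run and 11 in the third, and by CPM 4 of 9 genes kept their place in the order of levels, since CPM ignores length. Over all genes, calls in females on week 13 preference were 6 in edgeR, and ran from 0 to 572, with intake. No paired analysis was possible because replicate numbers follow the listing order and pair nothing.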
